A study of Mus musculus with 21 samples.

Results

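The 49 genes described here encode proteins that repair DNA double-strand breaks or signal to the cell cycle from stalled and broken DNA. They were taken by name from the 55536 gene IDs of a table of raw read counts, with each ID matched to its symbol in the GENCODE vM21 annotation, and were sorted by role. There were 18 recombination genes and 10 Fanconi genes, here called the 28 recombination and Fanconi genes, which act mainly in S phase. Another 12 are here called the end-joining genes. Of these, 7 act in nonhomologous end joining and 5 in microhomology-mediated end joining or single-strand break repair. The figures label the 5 as microhomology and single-strand end joining. The other 9 were 3 genes of break-site signalling and 6 genes of the ATR checkpoint. The organoids were primary mouse mammary cultures labelled as mammary epithelia. One genotype was homozygous for the Mre11 ATLD1 allele (ATLD), and the other was wild type (WT). Samples of both were taken at day 0, 14 and 28 of activation of neuT, an oncogenic form of the rat growth factor receptor whose mouse counterpart is Erbb2. The series' stated question is how the DNA damage response behaves after an oncogene is switched on in these cells.

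Each of the 6 groups held 3 original libraries. Replicate 1 of each WT day was also sequenced again in 1 run with the ATLD libraries, so that 21 libraries were counted. The original WT libraries thus belong to another sequencing batch than the ATLD libraries. Levels of the genotypes set side by side below are not corrected for batch. How many of all genes separate the genotypes in such levels was not counted. Every culture past day 0 carried active neuT, and the samples hold no culture of the same age without it. Time in culture and time with neuT therefore cannot be told apart. What drives neuT, and whether the replicates came from separate animals, is not given in the sources used here, so that p-values measure the spread between these samples, which may be technical. These were bulk libraries, in which fewer cells that make a transcript and less of it per cell cannot be told apart.

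Homologous recombination copies the missing sequence from an intact sister chromatid and so works mainly in S and G2 phase, when a sister is present. The Fanconi proteins unhook crosslinked strands at replication forks and hand the break to recombination, while the ATR kinase slows the cell cycle when single-stranded DNA builds up. Nonhomologous end joining religates broken ends in any phase, and microhomology-mediated joining, which uses polymerase theta, anneals short matching stretches after the ends have been trimmed. Mre11 is the nuclease that starts this trimming, and the ATLD1 allele is a partial loss-of-function allele modelled on a human ataxia-telangiectasia-like disorder.

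The count of Mre11a, the mutated gene, was checked first. It stood at 15.02, 14.1 and 15.5 CPM (counts scaled to a common library size) in the 3 ATLD libraries of day 0, 15.9, 17.1 and 14.8 CPM at day 14 and 14.9, 16.6 and 14.8 CPM at day 28. The WT libraries held 58.6, 54.5 and 53.3 CPM at day 0, 56.4, 48.9 and 57.8 CPM at day 14 and 45.05, 52.5 and 43.3 CPM at day 28, and the resequenced WT runs 53.3, 47.9 and 42.2 CPM in day order. Every ATLD library was thus below every WT library. Library totals lay between 30905703 and 51757203 counts. In 3 original WT libraries (day 14 replicates 1 and 3, and day 28 replicate 2) the fifth of genes richest in G and C stood at -1.12 to -0.88 on the log2 scale relative to the fifth poorest in them, each set against its mean over libraries, and at -0.48 to 0.68 in the other libraries. The GC-rich members Fance, Xrcc1, Xrcc3 and Mus81 were low in those libraries. Epithelial marker genes summed to between 4180 and 11500 CPM in the 18 original libraries. Markers of other cell types (12 genes) summed to between 10.7 and 64.4 CPM, with Ptprc, Cd3e and Adipoq at or near 0. Lyz2 and Sftpc, markers of macrophages and lung, stood at 4.22 to 10.6 CPM in the original WT libraries and at or below 0.516 CPM in all ATLD and resequenced libraries. The 12 genes still summed to 42.1 CPM in the resequenced WT run of day 0, so that most of that sum came from other markers.

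All 49 genes passed the filter on low counts and were tested. Per kilobase of the deposited gene length (RPKM, mean over the 18 original libraries), the end-joining genes Parp1, which senses nicks and breaks, at 23.7 RPKM and Xrcc5, a subunit of the Ku ring that caps broken ends, at 19.4 RPKM had the highest levels. Lig3, a DNA ligase of microhomology-mediated joining and single-strand break repair, had 14.96 RPKM, and Xrcc6, the partner of Xrcc5 in Ku, had 14.9 RPKM. In the other roles the highest were Wee1, a kinase that delays mitosis, at 12.1 RPKM, Rnf168, a ubiquitin ligase that marks chromatin at breaks, at 11.9 RPKM, Rad51d, a recombination gene, at 6.73 RPKM and Fance, a subunit of the Fanconi core complex, at 6.15 RPKM. The lowest levels were those of Rnf8, a ubiquitin ligase acting before Rnf168, at 0.584 RPKM, of Polq, which encodes polymerase theta, at 0.902 RPKM and of Palb2, which joins Brca1 to Brca2, at 0.920 RPKM.

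Promoter sequences of the members are shown to give the letters behind a count of words bound by E2F factors, which switch on S phase genes. The 6 below were picked among genes that fell in ATLD organoids by day 28. The RefSeq annotation of GRCm38.p6 gave windows of 250 bases before to 50 bases after the start for 40 of the 49 genes, 44 windows in all. E2F-type words (TTTCCCGC, TTTGGCGC, TTTCGCGC or TTTGCCGC on either strand) stood in 8 of the 44 windows, or 18.2%, against 2.26% of the 32851 windows of all genes. They stood in 5 of 25 windows of the recombination and Fanconi genes, in 2 of 5 windows of the ATR checkpoint and in 1 of 12 windows of the end-joining genes. Of 28 windows of S phase replication genes, which are not members, 10 held one, or 35.7%. Of the members with such a word, Fancg did not fall in ATLD organoids by day 28 (0.18 ± 0.12), and its window and that of Rad51c are not shown. The words of the cell cycle homology region (CHR: TTTGAA or TTCGAA on either strand) stood in 5 of the 44 windows, or 11.4%, against 19.2% of all windows. The member windows also had more G and C (median 58.3%) than all windows (52.7%), so that the shares are not matched for base composition. A word is a match of letters and not evidence that a factor binds there. In the sequences, written 5′ to 3′ on the strand of the gene, capitals mark the E2F-type words or their reverse complements, and in Bard1 and Polq also the CHR words. The windows are those of Bard1 (chr1:71102923-71103222, minus strand), Brca2 (chr5:150522371-150522670, plus strand), Clspn (chr4:126556730-126557029, plus strand), Topbp1 (chr9:103305077-103305376, plus strand), Polq (chr16:37011536-37011835, plus strand), which holds CHR words and no E2F-type word, and, as the 1 end-joining window with an E2F-type word, Xrcc6 (chr15:82016119-82016418, plus strand).
Bard1: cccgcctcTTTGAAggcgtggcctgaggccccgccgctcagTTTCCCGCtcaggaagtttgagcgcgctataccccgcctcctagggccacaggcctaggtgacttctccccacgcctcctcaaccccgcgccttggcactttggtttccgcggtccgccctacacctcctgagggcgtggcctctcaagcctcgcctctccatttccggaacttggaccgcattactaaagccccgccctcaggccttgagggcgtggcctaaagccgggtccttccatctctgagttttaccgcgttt
Brca2: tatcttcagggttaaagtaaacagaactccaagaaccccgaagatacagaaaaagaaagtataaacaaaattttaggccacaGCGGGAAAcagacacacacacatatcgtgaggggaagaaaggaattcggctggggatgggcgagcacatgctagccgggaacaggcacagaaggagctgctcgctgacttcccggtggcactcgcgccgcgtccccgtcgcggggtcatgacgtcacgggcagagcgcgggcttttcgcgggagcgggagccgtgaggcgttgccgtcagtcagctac
Clspn: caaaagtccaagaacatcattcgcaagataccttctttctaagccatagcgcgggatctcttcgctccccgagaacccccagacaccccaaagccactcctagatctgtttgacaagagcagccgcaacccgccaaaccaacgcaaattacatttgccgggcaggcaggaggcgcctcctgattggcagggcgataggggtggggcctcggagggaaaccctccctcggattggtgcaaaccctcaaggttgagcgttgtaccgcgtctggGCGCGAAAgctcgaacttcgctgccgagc
Topbp1: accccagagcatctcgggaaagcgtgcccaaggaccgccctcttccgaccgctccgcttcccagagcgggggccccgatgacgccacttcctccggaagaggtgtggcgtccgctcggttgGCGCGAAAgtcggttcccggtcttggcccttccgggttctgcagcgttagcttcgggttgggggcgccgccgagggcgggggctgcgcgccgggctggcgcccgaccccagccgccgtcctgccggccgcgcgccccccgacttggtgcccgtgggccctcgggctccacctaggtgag
Polq: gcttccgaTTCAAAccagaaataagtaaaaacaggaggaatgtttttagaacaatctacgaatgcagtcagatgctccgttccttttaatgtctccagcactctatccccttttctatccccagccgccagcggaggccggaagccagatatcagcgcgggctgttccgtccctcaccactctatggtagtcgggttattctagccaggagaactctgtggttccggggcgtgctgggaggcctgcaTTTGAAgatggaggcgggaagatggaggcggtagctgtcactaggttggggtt
Xrcc6: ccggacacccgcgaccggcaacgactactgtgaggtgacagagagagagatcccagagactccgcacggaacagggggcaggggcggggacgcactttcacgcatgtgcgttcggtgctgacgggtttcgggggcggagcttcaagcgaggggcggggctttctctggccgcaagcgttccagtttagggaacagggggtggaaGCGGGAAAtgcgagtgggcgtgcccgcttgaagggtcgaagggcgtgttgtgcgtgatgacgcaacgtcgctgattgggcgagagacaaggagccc

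In ATLD organoids at day 28 of neuT activation, 31 of the 49 genes had fallen relative to day 0 and none had risen. Over all 18684 genes tested, 15.7% fell and 14.1% rose. The median log2 change of the 49 genes was -0.64, against -0.02 over all genes. The split by role was uneven. Of the 28 recombination and Fanconi genes 19 fell, with a median of -1.26, and of the 6 ATR checkpoint genes 5 fell, with a median of -1.20. Of the 12 end-joining genes 5 fell, with a median of -0.20, and of the 7 genes of nonhomologous end joining 2 fell, with a median of -0.10. These lists were described by counts and medians, and no test compared one list with another. Of the 31 calls, 27 held in all 13 alternative fits. Those of Rad51c, Xrcc3, Parp1 and Xrcc6 did not, and are given with their values below. With an offset for the GC content of each gene, 32 of the 49 genes fell and 2 rose. With the compared groups fitted alone, 31 fell and 1 rose.

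**Figure D1:**
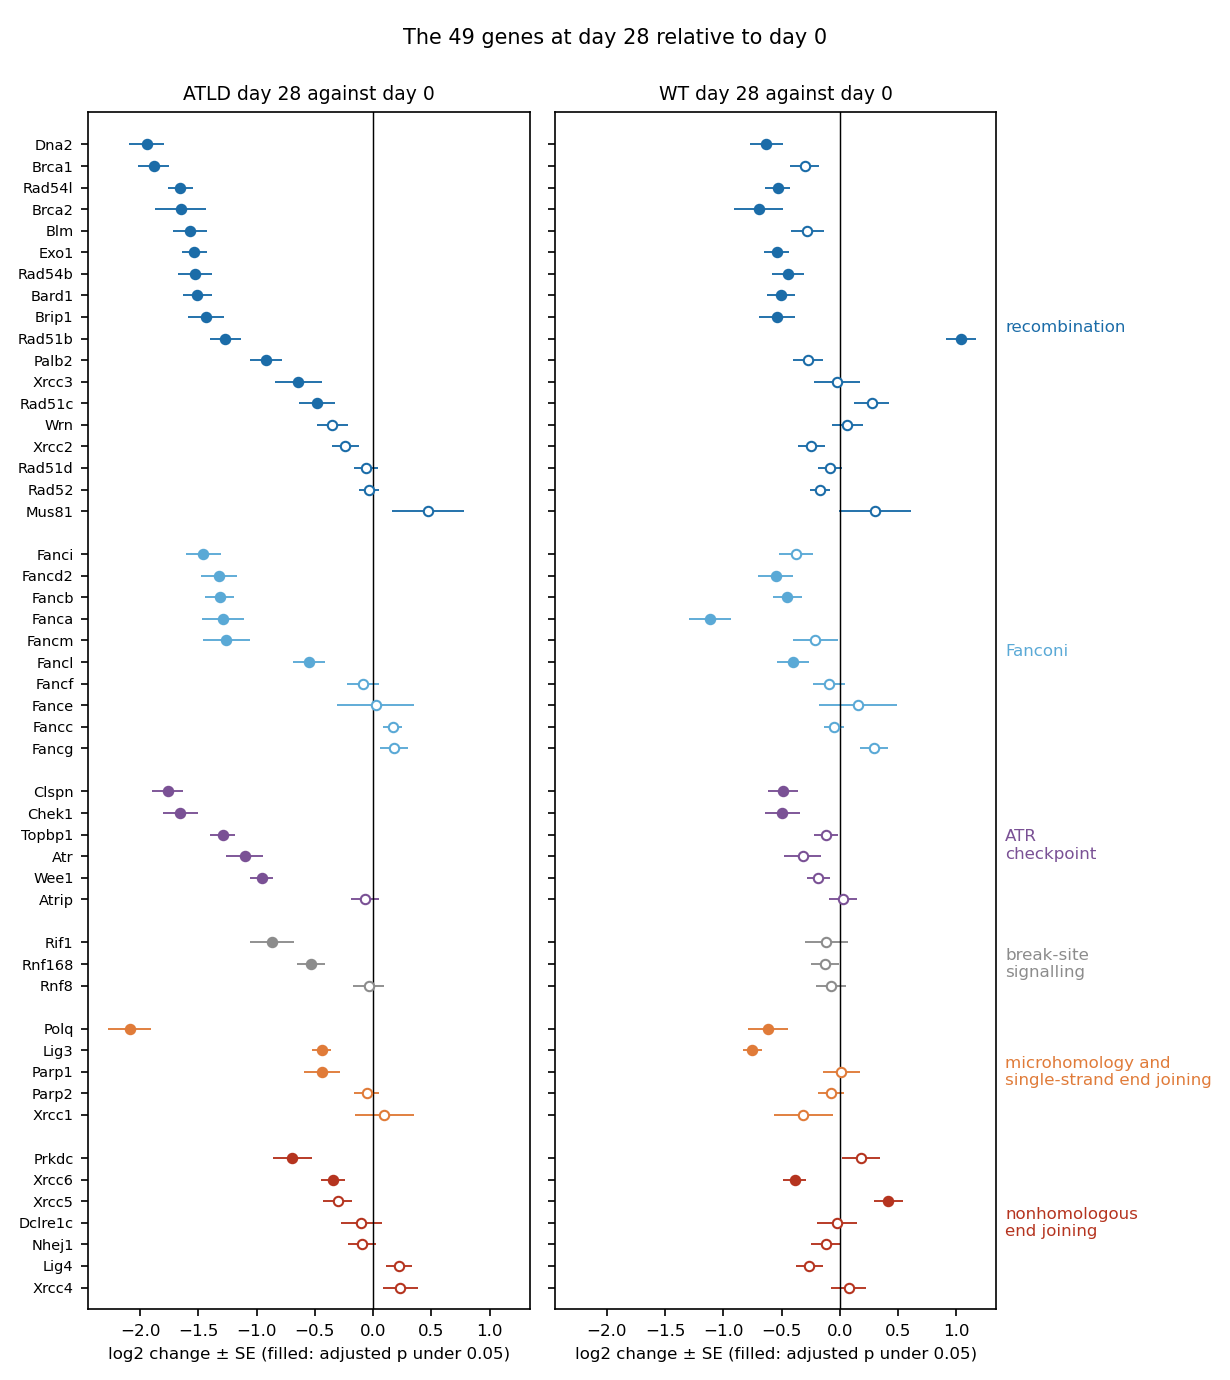
Log2 change at day 28 relative to day 0 (x axis, with SE) of each of the 49 genes, sorted by role, in ATLD (left) and WT organoids (right), with filled points for an adjusted p under 0.05. In ATLD the recombination, Fanconi and ATR checkpoint genes lie between -1.94 and 0.47. The 7 genes of nonhomologous end joining lie between -0.69 and 0.23, 4 of them between -0.10 and 0.23. The lowest of all is the end-joining gene Polq, at -2.09.

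Among the recombination genes, Brca1, the ubiquitin ligase that opens the way for end resection, held 40.2, 31.9 and 38.3 CPM at day 0, 22.9, 24.5 and 18.99 CPM at day 14 and 9.31, 11.1 and 9.50 CPM at day 28 in ATLD organoids. In WT organoids it held 45.2, 40.3 and 38.02 CPM at day 0, 41.5, 35.7 and 37.8 CPM at day 14 and 29.8, 37.6 and 32.9 CPM at day 28. The 3 ATLD groups did not overlap and went down at each step, while the WT groups of day 0 and day 14 overlapped. Brca1 fell in ATLD organoids by day 28, at a log2 change of -1.88 ± 0.13 (SE, edgeR adjusted p = 2.9e-08), and its change in WT organoids was -0.30 ± 0.13 (SE, edgeR adjusted p = 0.104). Bard1, the obligate partner of Brca1, held 15.6, 12.99 and 15.1 CPM at day 0, 10.3, 10.1 and 8.31 CPM at day 14 and 4.92, 5.69 and 4.73 CPM at day 28 in ATLD organoids. WT organoids held 19.5, 18.2 and 18.1 CPM at day 0, 13.8, 13.1 and 13.5 CPM at day 14 and 12.4, 15.01 and 11.9 CPM at day 28. The ATLD groups of Bard1 were again separate at each step, and its log2 change by day 28 was -1.51 ± 0.12 (SE, edgeR adjusted p = 1.29e-07) in ATLD organoids. Dna2, a nuclease that extends the resected end, held 17.4, 15.9 and 19.6 CPM at day 0, 9.25, 10.6 and 8.88 CPM at day 14 and 4.64, 4.80 and 4.33 CPM at day 28 in ATLD organoids. WT organoids held 18.4, 19.4 and 17.5 CPM at day 0, 10.3, 15.4 and 10.7 CPM at day 14 and 11.3, 11.3 and 13.1 CPM at day 28. The log2 change of Dna2 by day 28 of -1.94 ± 0.15 (SE, edgeR adjusted p = 5.84e-08) was the largest fall of the 18 recombination genes. Exo1, the other resection nuclease, fell at -1.53 ± 0.11 (SE, edgeR adjusted p = 2.75e-08).

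Brca2, a tumour suppressor that acts after resection, fell by day 28 in ATLD organoids at a log2 change of -1.65 ± 0.22 (SE, edgeR adjusted p = 1.87e-05). Palb2, the bridge between Brca1 and Brca2, fell at -0.92 ± 0.14 (SE, edgeR adjusted p = 5.96e-05), and Brip1, a helicase bound to Brca1, at -1.43 ± 0.15 (SE, edgeR adjusted p = 2.15e-06). Of the motor proteins of strand exchange, Rad54l fell at -1.65 ± 0.11 (SE, edgeR adjusted p = 1.22e-08) and Rad54b at -1.53 ± 0.14 (SE, edgeR adjusted p = 4.99e-07). Blm, a helicase that resolves joined molecules, fell at -1.57 ± 0.14 (SE, edgeR adjusted p = 3.86e-07). Its relative Wrn, at -0.35 ± 0.13 (SE, edgeR adjusted p = 0.0567), did not pass the test.

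In ATLD organoids by day 28 Rad51c, which also acts after resection, fell at a log2 change of -0.48 ± 0.15 (SE, edgeR adjusted p = 0.0238) and Xrcc3 at -0.64 ± 0.20 (SE, edgeR adjusted p = 0.0234), while Rad51d at -0.06 ± 0.10 and Xrcc2 at -0.24 ± 0.12 did not pass the test. Rad51d held 28.9, 31.1 and 31.2 CPM at day 0, 27.5, 29.4 and 28.1 CPM at day 14 and 29.7, 29.4 and 28.2 CPM at day 28 in ATLD organoids. WT organoids held 20.98, 20.7 and 25.3 CPM at day 0, 18.2, 20.4 and 17.6 CPM at day 14 and 21.9, 19.1 and 22.4 CPM at day 28, so that every ATLD library was above every WT library. These levels are not corrected for sequencing batch. With a batch term Rad51d was called higher in ATLD organoids at day 14 (0.35) and day 28 (0.30) and was not called at day 0. The day 14 call was lost with the batch of the ATLD libraries alone (0.27), and the day 28 call in 5 of 15 alternative fits. The Rad51c call was lost without ATLD day 0 replicate 3 (-0.33) or day 28 replicate 3 (-0.38). The Xrcc3 call was lost without ATLD day 0 replicate 1 or 3 or day 28 replicate 1 or 2, at log2 changes of -0.65 to -0.55. Rad51b had its own pattern. It held 7.18, 8.53 and 7.97 CPM at day 0, 6.43, 5.74 and 6.19 CPM at day 14 and 3.71, 3.35 and 2.75 CPM at day 28 in ATLD organoids. WT organoids held 5.71, 5.88 and 5.38 CPM at day 0, 19.1, 15.5 and 19.6 CPM at day 14 and 11.5, 12.7 and 10.8 CPM at day 28, and the resequenced WT runs gave 4.40, 15.2 and 10.6 CPM in day order. The ATLD libraries of day 28 all lay below those of day 0, whereas both later WT groups lay above all WT libraries of day 0. The log2 change of Rad51b by day 28 was -1.27 ± 0.13 (SE, edgeR adjusted p = 1.71e-06) in ATLD and 1.04 ± 0.13 (SE, edgeR adjusted p = 8.55e-06) in WT organoids. Mus81, a nuclease that cuts joined molecules, rose in neither genotype by the test (0.47 ± 0.31 in ATLD and 0.30 ± 0.31 in WT), and Rad52, an annealing protein, changed by -0.04 ± 0.09 in ATLD organoids without passing the test.

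**Figure D2:**
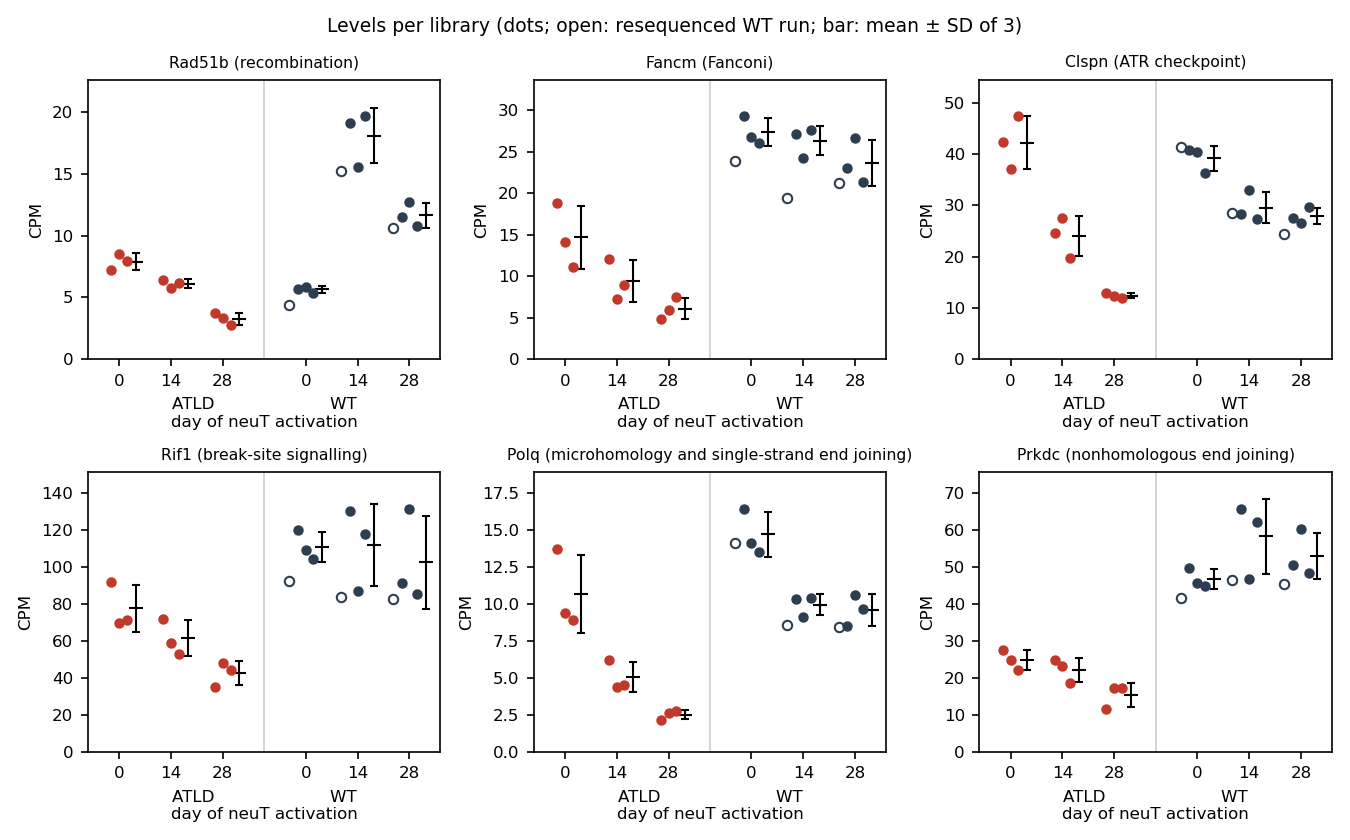
Level in CPM (y axis) in each library of 1 gene for each role, by genotype and day of neuT activation (x axis), with the mean ± SD of 3 libraries beside the points and the resequenced WT runs as open circles. Rad51b sits at 15.5 to 19.6 CPM in the original WT libraries of day 14 and at or below 8.53 CPM in all ATLD libraries, while Clspn and Polq go down at each step in ATLD organoids.

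Of the 10 Fanconi genes, 6 fell in ATLD organoids by day 28, with a median log2 change of -0.91 over the 10. Fancm, the translocase that brings the core complex to DNA, held 18.8, 14.1 and 11.2 CPM at day 0, 12.1, 7.25 and 8.93 CPM at day 14 and 4.92, 5.92 and 7.53 CPM at day 28 in ATLD organoids. WT organoids held 29.2, 26.7 and 26.02 CPM at day 0, 27.1, 24.3 and 27.6 CPM at day 14 and 22.98, 26.6 and 21.3 CPM at day 28. With no correction for batch, all ATLD libraries were below all WT libraries. The ATLD libraries of day 28 were below those of day 0, at a log2 change of -1.26 ± 0.20 (SE, edgeR adjusted p = 0.000148). Fancd2 and Fanci form the pair that the core complex ubiquitinates. Fancd2 held 17.3, 16.6 and 21.3 CPM at day 0, 11.6, 13.9 and 9.03 CPM at day 14 and 7.71, 7.47 and 6.87 CPM at day 28 in ATLD organoids. WT organoids held 22.02, 21.6 and 18.6 CPM at day 0, 18.1, 14.4 and 16.2 CPM at day 14 and 13.5, 15.7 and 13.3 CPM at day 28. Fancd2 fell at -1.32 ± 0.15 (SE, edgeR adjusted p = 5.19e-06) in ATLD organoids, and Fanci at -1.46 ± 0.15 (SE, edgeR adjusted p = 1.4e-06).

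Of the Fanconi core complex subunits, Fancb, Fanca and Fancl fell. Fancb fell at -1.32 ± 0.13 (SE, edgeR adjusted p = 5.77e-07) in ATLD organoids, where it held 9.62, 9 and 9.77 CPM at day 0, 5.21, 4.86 and 4.51 CPM at day 14 and 3.78, 3.97 and 3.62 CPM at day 28, against 8.70, 8.94 and 8.49 CPM at day 0, 8.93, 7.19 and 7.60 CPM at day 14 and 5.96, 7.51 and 5.66 CPM at day 28 in WT organoids. Fanca, a large scaffold subunit, fell in both genotypes, at -1.29 ± 0.18 (SE, edgeR adjusted p = 3.71e-05) in ATLD and -1.11 ± 0.18 (SE, edgeR adjusted p = 0.000131) in WT organoids. It held 25.6, 24.4 and 28.7 CPM at day 0, 12.1, 15.2 and 11.3 CPM at day 14 and 11.1, 10.7 and 10.4 CPM at day 28 in ATLD organoids. WT organoids held 26.1, 28.97 and 26.9 CPM at day 0, 8.49, 13.9 and 8.29 CPM at day 14 and 14, 10.2 and 13.6 CPM at day 28, so that most of the step lay between day 0 and day 14. Fancl, the ubiquitin ligase of the complex, held 23.3, 28.6 and 29.8 CPM at day 0, 22.9, 23.6 and 23.98 CPM at day 14 and 19.4, 18.7 and 17.6 CPM at day 28 in ATLD organoids. WT organoids held 14.5, 14.7 and 13.8 CPM at day 0, 11.8, 8.89 and 12.4 CPM at day 14 and 10.1, 12.99 and 9.58 CPM at day 28. With no correction for batch, every ATLD library was above every WT library for Fancl. Its log2 change by day 28 in ATLD organoids was -0.55 ± 0.14 (SE, edgeR adjusted p = 0.00566). Fancc (0.17 ± 0.08), Fancg (0.18 ± 0.12), Fance (0.02 ± 0.33) and Fancf (-0.09 ± 0.14) did not pass the test in ATLD organoids.

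Of the ATR checkpoint genes, Clspn, the mediator through which ATR reaches Chek1, held 42.3, 37.1 and 47.3 CPM at day 0, 24.7, 27.5 and 19.8 CPM at day 14 and 12.9, 12.4 and 11.9 CPM at day 28 in ATLD organoids. WT organoids held 40.8, 40.4 and 36.2 CPM at day 0, 28.3, 33 and 27.4 CPM at day 14 and 27.5, 26.6 and 29.7 CPM at day 28. The ATLD groups were separate at each step, and the log2 change by day 28 was -1.76 ± 0.13 (SE, edgeR adjusted p = 3.75e-08). Chek1, the checkpoint kinase that ATR phosphorylates, held 24.2, 27.4 and 31.3 CPM at day 0, 16.9, 18.2 and 16.6 CPM at day 14 and 9.03, 9.45 and 7.83 CPM at day 28 in ATLD organoids. WT organoids held 24.3, 23.6 and 19.8 CPM at day 0, 19.6, 14.9 and 18.5 CPM at day 14 and 14.04, 19.6 and 14.5 CPM at day 28. The ATLD groups of Chek1 were separate and lower at each later day, while WT days 14 and 28 overlapped, and the log2 change by day 28 was -1.65 ± 0.15 (SE, edgeR adjusted p = 3.76e-07) in ATLD organoids. Topbp1, the activator of ATR, held 148, 120.0 and 123 CPM at day 0, 81.5, 72.04 and 69.3 CPM at day 14 and 48.8, 55.02 and 55.9 CPM at day 28 in ATLD organoids. WT organoids held 161, 146 and 143 CPM at day 0, 162, 146 and 157 CPM at day 14 and 128, 152 and 133 CPM at day 28. The WT days overlapped for Topbp1 while its ATLD groups did not, and its change in ATLD organoids by day 28 was -1.29 ± 0.11 (SE, edgeR adjusted p = 1.38e-07). Wee1 held 51.6, 50.5 and 53.5 CPM at day 0, 35.3, 36.5 and 33.03 CPM at day 14 and 27.1, 27.1 and 26.1 CPM at day 28 in ATLD organoids. WT organoids held 52.5, 45.2 and 46.1 CPM at day 0, 46.6, 38.7 and 46.4 CPM at day 14 and 39.2, 46.7 and 40.7 CPM at day 28. Wee1 fell by day 28 in ATLD organoids at -0.96 ± 0.10 (SE, edgeR adjusted p = 1.63e-06), where the 3 days did not overlap. The kinase gene Atr fell at -1.10 ± 0.16 (SE, edgeR adjusted p = 5.13e-05), while Atrip, its binding partner, at -0.07 ± 0.12 did not pass the test.

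Of the 3 genes of break-site signalling, Rif1, which protects ends from resection, held 91.9, 69.6 and 71.1 CPM at day 0, 72.05, 58.98 and 53.1 CPM at day 14 and 35.2, 47.9 and 44.3 CPM at day 28 in ATLD organoids. WT organoids held 120.0, 109 and 104 CPM at day 0, 130.4, 87.2 and 118 CPM at day 14 and 91.05, 132 and 85.3 CPM at day 28. Rif1 fell by day 28 in ATLD organoids at -0.87 ± 0.19 (SE, edgeR adjusted p = 0.00203), and the WT days overlapped. Rnf168 held 59.9, 60.9 and 54.4 CPM at day 0, 53.5, 45.6 and 49.8 CPM at day 14 and 36.3, 44.9 and 39.6 CPM at day 28 in ATLD organoids. WT organoids held 62.4, 58.04 and 53.2 CPM at day 0, 63.5, 51.4 and 65.3 CPM at day 14 and 49.4, 60.9 and 48.7 CPM at day 28. The ATLD days of Rnf168 did not overlap and the WT days did, and the change by day 28 in ATLD organoids was -0.54 ± 0.12 (SE, edgeR adjusted p = 0.00307). Rnf8 held 7.49, 6.50 and 6.23 CPM at day 0, 6.01, 6.21 and 6.001 CPM at day 14 and 6.26, 5.77 and 7.67 CPM at day 28 in ATLD organoids. WT organoids held 7.36, 8.44 and 7.79 CPM at day 0, 5.96, 7.07 and 5.91 CPM at day 14 and 7.38, 6.68 and 8.28 CPM at day 28. The days of Rnf8 at 0 and 28 overlapped in both genotypes, and its change of -0.04 ± 0.13 in ATLD organoids did not pass the test.

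The end-joining gene with the largest fall was Polq. It held 13.7, 9.38 and 8.91 CPM at day 0, 6.19, 4.39 and 4.49 CPM at day 14 and 2.16, 2.61 and 2.75 CPM at day 28 in ATLD organoids. WT organoids held 16.4, 14.1 and 13.5 CPM at day 0, 10.3, 9.12 and 10.4 CPM at day 14 and 8.49, 10.6 and 9.65 CPM at day 28. The log2 change of Polq by day 28 in ATLD organoids, -2.09 ± 0.18 (SE, edgeR adjusted p = 2.49e-07), was the largest of all 49 genes. Lig3 held 144, 138 and 149 CPM at day 0, 89.2, 98.1 and 86.2 CPM at day 14 and 102, 115 and 101 CPM at day 28 in ATLD organoids. WT organoids held 146, 140.3 and 140.3 CPM at day 0, 86.03, 86.6 and 87 CPM at day 14 and 83.95, 83.3 and 86.2 CPM at day 28. Lig3 fell in both genotypes, at -0.44 ± 0.08 (SE, edgeR adjusted p = 0.000513) in ATLD and -0.75 ± 0.08 (SE, edgeR adjusted p = 1.59e-06) in WT organoids, and here the low level was reached by day 14. Parp1 held 161, 163 and 190.1 CPM at day 0, 121, 152 and 124.7 CPM at day 14 and 138, 126 and 115 CPM at day 28 in ATLD organoids. WT organoids held 100.4, 116 and 112 CPM at day 0, 89.3, 134 and 88.2 CPM at day 14 and 121, 91.7 and 118 CPM at day 28. All ATLD libraries of day 28 lay below those of day 0, and Parp1 fell in ATLD organoids at -0.44 ± 0.16 (SE, edgeR adjusted p = 0.0427). That call was lost without any 1 of ATLD day 0 replicates 1, 2 and 3 or day 28 replicates 2 and 3, at log2 changes of -0.49 to -0.36. Parp2, a relative of Parp1, at -0.06 ± 0.11, and Xrcc1, the scaffold that holds Lig3, at 0.10 ± 0.25, did not pass the test in ATLD organoids. Xrcc1 held 63.05, 64.7 and 68.7 CPM at day 0, 49.2, 60.9 and 53.7 CPM at day 14 and 78.8, 63.8 and 67.6 CPM at day 28 in ATLD organoids. WT organoids held 45.3, 50.5 and 49.9 CPM at day 0, 20.8, 46.5 and 20.96 CPM at day 14 and 44.3, 25.8 and 47.2 CPM at day 28, with the lowest values in the 3 libraries low in GC-rich genes.

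Among the genes of nonhomologous end joining, Prkdc, the catalytic kinase that binds Ku at an end, held 27.5, 24.8 and 22.1 CPM at day 0, 24.7, 23.2 and 18.5 CPM at day 14 and 11.7, 17.1 and 17.3 CPM at day 28 in ATLD organoids. WT organoids held 49.7, 45.6 and 44.8 CPM at day 0, 65.7, 46.7 and 62.1 CPM at day 14 and 50.5, 60.05 and 48.4 CPM at day 28. All ATLD libraries were below all WT libraries in these levels, which are not corrected for batch. The change by day 28 in ATLD organoids was -0.69 ± 0.17 (SE, edgeR adjusted p = 0.0044). Of the Ku subunits, Xrcc5 held 37.04, 40.98 and 49.5 CPM at day 0, 35.6, 37.6 and 33.9 CPM at day 14 and 33.4, 36.5 and 33.3 CPM at day 28 in ATLD organoids. WT organoids held 51.8, 48.1 and 47.1 CPM at day 0, 77.2, 58.8 and 76.1 CPM at day 14 and 63.2, 73.5 and 59.9 CPM at day 28. Xrcc5 changed by -0.30 ± 0.12 (SE, edgeR adjusted p = 0.077) in ATLD organoids by day 28, which did not pass the test, and rose in WT organoids at 0.42 ± 0.12 (SE, edgeR adjusted p = 0.0191). Xrcc6 held 80.8, 93.9 and 104 CPM at day 0, 70.01, 81.8 and 75.5 CPM at day 14 and 79.7, 74.3 and 64.6 CPM at day 28 in ATLD organoids. WT organoids held 63.5, 62.01 and 61.3 CPM at day 0, 50.4, 50.2 and 48.8 CPM at day 14 and 49.3, 47.1 and 46.4 CPM at day 28. With no correction for batch, every ATLD library was thus above every WT library. Xrcc6 fell by day 28 in both, at -0.35 ± 0.10 (SE, edgeR adjusted p = 0.0159) in ATLD and -0.39 ± 0.10 (SE, edgeR adjusted p = 0.00874) in WT organoids, and the ATLD call was lost without day 0 replicate 3 (-0.26) or day 28 replicate 3 (-0.27). The ligation step is carried by Xrcc4, Lig4 and Nhej1. Xrcc4 held 15.6, 22.01 and 20.4 CPM at day 0, 23.4, 25.4 and 27.2 CPM at day 14 and 23.3, 22.9 and 21.9 CPM at day 28 in ATLD organoids. WT organoids held 13.3, 12.3 and 12.2 CPM at day 0, 18.9, 12.99 and 17.8 CPM at day 14 and 12.5, 15.7 and 11.7 CPM at day 28, below the ATLD libraries of the same day in each case. None of these 3 ligation genes passed the test by day 28 in ATLD organoids, at 0.23 ± 0.15 for Xrcc4, 0.22 ± 0.11 for Lig4 and -0.10 ± 0.12 for Nhej1. Dclre1c, the nuclease that opens hairpin ends, at -0.10 ± 0.17, did not pass either.

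The fall in ATLD organoids was under way by day 14. At that day 22 of the 49 genes had fallen relative to day 0 and none had risen, beside 6.49% of all genes that fell and 5.18% that rose. The median log2 change of the 49 was -0.40. With the offset for GC content, 29 fell and 1 rose. Recombination and Fanconi genes made up 15 of the 22, ATR checkpoint genes 4 and end-joining genes 3. The largest fall was again that of Polq, at -1.09 ± 0.18 (SE, edgeR adjusted p = 0.000412), followed by Fanca at -1.03 ± 0.18 (SE, edgeR adjusted p = 0.000779) and Fancb at -0.96 ± 0.12 (SE, edgeR adjusted p = 5.38e-05). The calls of Fancm (-0.64), Rad51c (-0.55) and Nhej1 (-0.40) were lost without single libraries. Fancm gave -0.67 to -0.42 without day 0 replicate 1 or 2 or day 14 replicate 2 or 3, and Rad51c gave -0.40 and -0.46 without replicate 3 of day 0 or of day 14. Nhej1 gave -0.46 to -0.33 without day 0 replicate 2 or 3 or any replicate of day 14.

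Between day 14 and day 28, 20 of the 49 genes fell in ATLD organoids and none rose, beside 9.05% of all genes that fell and 8.25% that rose. The median log2 change was -0.26. With an offset for the GC content of each gene, 22 fell and 3 rose. Brca1 changed most, at -1.15 ± 0.13 (SE, edgeR adjusted p = 1.66e-05), then Dna2 at -1.06 ± 0.15 (SE, edgeR adjusted p = 9.96e-05), Brca2 at -1.02 ± 0.21 (SE, edgeR adjusted p = 0.00327) and Polq at -1.0 ± 0.18 (SE, edgeR adjusted p = 0.00117). Rad51b, which had not passed the test by day 14 at -0.37 ± 0.13 (SE, edgeR adjusted p = 0.0847), fell in this second interval at -0.90 ± 0.13 (SE, edgeR adjusted p = 0.000184). Fanca, at -0.26 ± 0.18, and Lig3, at 0.21 ± 0.08, had their fall before day 14 and did not pass the test after it. The calls of Fancm and Prkdc did not hold without single libraries. Fancm gave -0.66 to -0.40 without replicate 1 or 3 of day 14 or replicate 1 or 2 of day 28, and Prkdc -0.49 to -0.36 without replicate 1 or 2 of day 14 or replicate 1 of day 28. The comparisons against day 0 share the day 0 libraries of their genotype, and those that involve day 14 share its libraries, so that their values are given side by side and not as separate support.

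In WT organoids fewer of the genes passed the test. By day 28, 16 of the 49 genes had fallen and 2 had risen, beside 12.4% and 12.3% of all genes, and the median log2 change was -0.21. All 16 were among the 31 that fell in ATLD organoids, which makes 51.6% of the ATLD list and 100% of the WT list. Recombination and Fanconi genes made up 11 of the 16, with a median of -0.28 over the 28, and end-joining genes 3, with a median of -0.10 over the 12. The largest fall was that of Fanca, given above, followed by Lig3, Brca2 at -0.70 ± 0.21 (SE, edgeR adjusted p = 0.02) and Dna2 at -0.63 ± 0.14 (SE, edgeR adjusted p = 0.0028). Clspn fell at -0.49 ± 0.12 (SE, edgeR adjusted p = 0.00738) and Polq at -0.62 ± 0.17 (SE, edgeR adjusted p = 0.0128). The 2 that rose were Rad51b and Xrcc5. The count of called genes was 18, and it fell to 10 when replicate 1 of WT day 28 was left out, and to 11 when replicate 1 of day 0 or replicate 3 of day 28 was. The calls that held in all alternative fits were those of Rad51b, Fanca, Lig3, Bard1, Rad54l, Exo1, Dna2, Xrcc6 and Clspn. Xrcc5 was lost without replicate 2 or 3 of day 0 (0.40 and 0.39), replicate 2 of day 28 (0.33) or the 3 libraries low in GC-rich genes (0.30). Brca2 was lost without replicate 1 or 3 of day 0 or of day 28, at -0.70 to -0.58, and Polq without replicate 1 of day 0 (-0.52) or of day 28 (-0.53).

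At day 14, 13 of the 49 genes had fallen and 2 had risen in WT organoids, beside 15.1% and 15.2% of all genes, and the median log2 change was -0.26. Rad51b rose most, at 1.68 ± 0.13 (SE, edgeR adjusted p = 2.28e-08), and Fanca fell most, at -1.42 ± 0.18 (SE, edgeR adjusted p = 8.96e-06). Lig3 fell at -0.72 ± 0.08 (SE, edgeR adjusted p = 2.25e-06), Rad54l at -0.49 ± 0.10 (SE, edgeR adjusted p = 0.00141) and Bard1 at -0.47 ± 0.12 (SE, edgeR adjusted p = 0.00682), and these 5 calls held in all alternative fits. The count of 15 called genes was 8 without WT day 0 replicate 1 or 2 and 24 without day 14 replicate 2, the 1 library of that day in which GC-rich genes were not low. Xrcc1, of which 59.3% of bases are G or C, was called at -0.72 ± 0.26 (SE, edgeR adjusted p = 0.041) with 20.8, 46.5 and 20.96 CPM at day 14, against 45.3, 50.5 and 49.9 CPM at day 0. The resequenced run of day 14 replicate 1 gave 50.3 CPM, and without the 3 libraries low in GC-rich genes the change was -0.10 and not called. The rise of Xrcc5, at 0.53 ± 0.12 (SE, edgeR adjusted p = 0.0034), and the fall of Dna2, at -0.61 ± 0.14 (SE, edgeR adjusted p = 0.0032), were also lost without those 3 libraries, at 0.23 and -0.30. So were 5 more calls, at -0.28 against -0.41 for Clspn, -0.34 against -0.39 for Exo1, -0.29 against -0.28 for Rad52, -0.42 against -0.39 for Rad54b and -0.35 against -0.32 for Xrcc6. Between day 14 and day 28, 1 gene fell and none rose in WT organoids, beside 0.375% and 0.53% of all genes. It was Rad51b, at -0.63 ± 0.13 (SE, edgeR adjusted p = 0.0206), and the call was lost without replicate 1 or 3 of either day, at -0.64 to -0.57, and without the 3 libraries low in GC-rich genes, at -0.47.

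The difference between the genotypes in the change with time was tested directly, as the ATLD change minus the WT change. By day 28, 25 of the 49 genes fell more, or rose less, in ATLD organoids and 1 did the opposite, beside 14% of all genes with a lower and 13.5% with a higher change in ATLD. The median difference of the 49 genes was -0.65, against -0.05 over all genes. With the offset for GC content, 29 were lower and 3 higher. Recombination and Fanconi genes made up 16 of the 25, with a median of -0.77 over the 28, and 5 of the 6 ATR checkpoint genes were called. Of the 12 end-joining genes 3 were lower, namely Polq, Prkdc and Xrcc5, and Lig4 was higher, with a median of 0.02 over the 12. Rad51b differed most, at -2.31 ± 0.19 (SE, edgeR adjusted p = 5.86e-08), then Brca1 at -1.58 ± 0.18 (SE, edgeR adjusted p = 3.85e-06) and Polq at -1.47 ± 0.25 (SE, edgeR adjusted p = 0.000218). Dna2 differed by -1.31 ± 0.20 (SE, edgeR adjusted p = 8.92e-05), Blm by -1.29 ± 0.20 (SE, edgeR adjusted p = 8.8e-05), Clspn by -1.28 ± 0.18 (SE, edgeR adjusted p = 2.78e-05) and Topbp1 by -1.17 ± 0.15 (SE, edgeR adjusted p = 1.23e-05). Prkdc differed by -0.87 ± 0.23 (SE, edgeR adjusted p = 0.00886) and Xrcc5 by -0.72 ± 0.18 (SE, edgeR adjusted p = 0.00487). Fanca (-0.17 ± 0.25), Lig3 (0.31 ± 0.11) and Xrcc6 (0.04 ± 0.14), which fell in both genotypes, did not pass this test. Lig4, at 0.48 ± 0.16 (SE, edgeR adjusted p = 0.0327), held 15.1, 13.8 and 13.7 CPM at day 0, 14.1, 12.5 and 13.9 CPM at day 14 and 15.7, 16.8 and 17.1 CPM at day 28 in ATLD organoids. WT organoids held 15.6, 15.9 and 14.6 CPM at day 0, 13.6, 10.3 and 13.3 CPM at day 14 and 12.4, 14.1 and 11.99 CPM at day 28. The Lig4 call was lost in 8 of the 12 fits that left out a library, at log2 differences of 0.43 to 0.47. Those libraries were WT day 0 replicates 1 and 2, WT day 28 replicates 1 and 3, and ATLD day 0 and day 28 replicates 2 and 3.

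By day 14 the same test called 8 of the 49 genes lower and none higher in ATLD organoids, beside 10.6% and 10.8% of all genes, which puts the share of lower members not far above that of all genes. With the offset for GC content, 9 were lower and 2 higher. The 8 were Rad51b at -2.04 ± 0.18 (SE, edgeR adjusted p = 2.15e-07), Rad51c at -0.90, Topbp1 at -0.86 ± 0.15 (SE, edgeR adjusted p = 0.000362), Fancb at -0.82, Xrcc5 at -0.78, Brca1 at -0.63, Blm at -0.62 and Wee1 at -0.44. Rad51b and Topbp1 held in all alternative fits. Without the 3 WT libraries low in GC-rich genes the calls of Rad51c (-0.59), Xrcc5 (-0.46), Brca1 (-0.47), Blm (-0.42) and Wee1 (-0.20) were lost, and with the resequenced runs in place of their originals that of Fancb was (-0.60). The count was 5 without WT day 0 replicate 3, WT day 14 replicate 1 or ATLD day 14 replicate 3, and 14 without WT day 14 replicate 2.

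ATLD was also compared with WT within each day. That fit held all 21 libraries and a term for sequencing batch, and it treats a resequenced run and its original as separate libraries although they come from 1 culture. At day 0, 9 of the 49 genes were higher and 5 lower in ATLD organoids, beside 26.1% and 29.5% of all 18844 genes tested. With the offset for GC content, 9 were higher and 12 lower. The median log2 difference of the 49 was 0.06. Fancl was the highest, at 1.19 ± 0.15 (SE, edgeR adjusted p = 3.46e-06), followed by Xrcc4 at 0.91 ± 0.16 (SE, edgeR adjusted p = 0.000142), Rad51b at 0.75 ± 0.14 (SE, edgeR adjusted p = 0.000188) and Xrcc6 at 0.61 ± 0.11 (SE, edgeR adjusted p = 0.000108). Xrcc3 was the lowest, at -0.74 ± 0.22 (SE, edgeR adjusted p = 0.00774), with 10.4, 9.52 and 10.9 CPM in ATLD and 13.5, 15.7 and 16.1 CPM in WT organoids. These 5 calls held in all alternative fits. Prkdc, at -0.69 ± 0.17 (SE, edgeR adjusted p = 0.00234), was lost without WT day 0 replicate 1 (-0.59), and Fancm, at -0.65 ± 0.21 (SE, edgeR adjusted p = 0.0124), was lost without that library (-0.55), without ATLD day 0 replicate 3 (-0.49) or in the second batch alone (-0.66). The count of 14 called genes was 7 without WT day 0 replicate 1, 8 without ATLD day 0 replicate 3 and 8 in the second batch alone.

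At day 14, 7 of the 49 genes were higher and 15 lower in ATLD organoids, beside 30.1% and 35% of all genes, and the median difference was -0.19. Fancl was the highest at day 14, at 1.36 ± 0.15 (SE, edgeR adjusted p = 2.76e-07), and Rad51b the lowest, at -1.32 ± 0.14 (SE, edgeR adjusted p = 1.21e-07). Without the 3 WT libraries low in GC-rich genes the day 14 calls of Rif1 (-0.51) and Wee1 (-0.26) were lost, at -0.33 and -0.11. At day 28, 9 were higher and 28 lower, beside 29.3% and 34.9% of all genes, and the median was -0.58. Of the 28 genes lower at day 28, 19 were recombination or Fanconi genes, 5 ATR checkpoint genes and 3 end-joining genes. Polq was the lowest at day 28, at -1.77 ± 0.19 (SE, edgeR adjusted p = 1.85e-07), followed by Fancm at -1.72 ± 0.21 (SE, edgeR adjusted p = 1.26e-06), Rad51b at -1.62 ± 0.14 (SE, edgeR adjusted p = 1e-08), Brca1 at -1.57 ± 0.14 (SE, edgeR adjusted p = 2.56e-08) and Prkdc at -1.55 ± 0.17 (SE, edgeR adjusted p = 3.31e-07). The highest was Xrcc4, with a difference of 1.06 ± 0.16 (SE, edgeR adjusted p = 1.84e-05). Fancl, at 0.997 ± 0.15 (SE, edgeR adjusted p = 1.1e-05), Xrcc6, at 0.64 ± 0.11 (SE, edgeR adjusted p = 3.98e-05), and Xrcc4 were higher in ATLD organoids at each of the 3 days. Of the 7 genes of nonhomologous end joining, 4 were higher and 2 lower at day 28, and Dclre1c, at -0.38 ± 0.18 (SE, edgeR adjusted p = 0.0751), did not pass the test. Of the 37 calls at day 28, 30 held in all alternative fits, and of the 22 calls at day 14, 12 did.

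**Figure D3:**
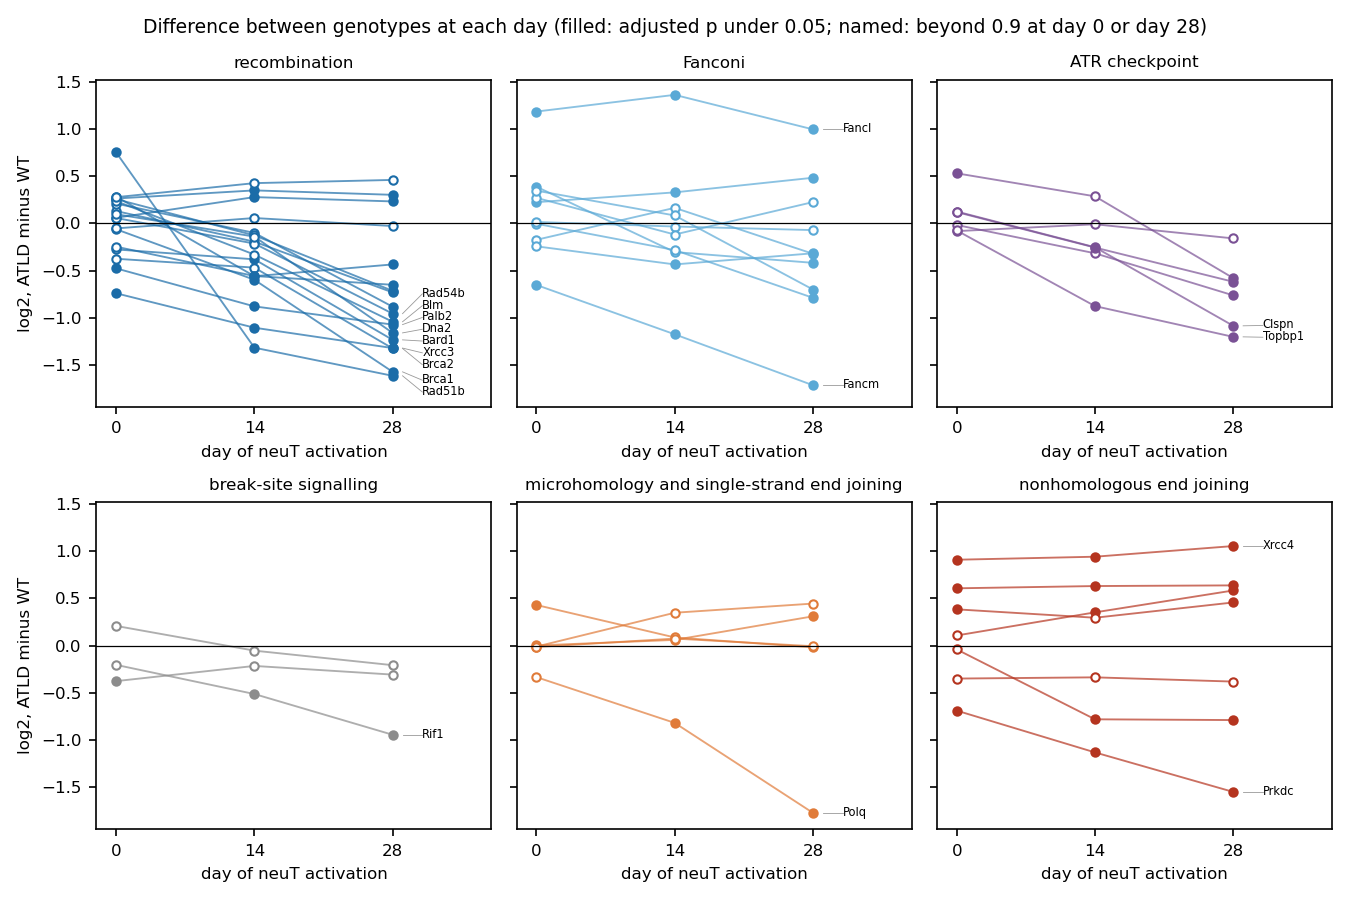
Log2 difference of ATLD minus WT (y axis) at day 0, 14 and 28 of neuT activation (x axis) for each of the 49 genes, 1 panel for each role, with filled points for an adjusted p under 0.05. Most recombination and ATR checkpoint lines go down with time, with Rad51b changing sign after day 0, while Xrcc4 stays between 0.91 and 1.06.

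Levels were also summarised in each library as the median over a list of each gene's log2 level relative to its own mean over the 18 original libraries. For the 28 recombination and Fanconi genes this median lay at 0.29 to 0.37 in ATLD libraries at day 0, -0.40 to -0.14 at day 14 and -0.80 to -0.72 at day 28. In WT libraries it lay at 0.34 to 0.44, 0.05 to 0.17 and 0.01 to 0.15 at the same days. The ATLD groups did not overlap, and at day 28 every ATLD library was below every WT library. For the 12 end-joining genes the median lay at 0.18 to 0.32, -0.09 to -0.03 and -0.09 to 0.12 in ATLD libraries and at 0.03 to 0.14, -0.10 to -0.03 and -0.07 to -0.05 in WT libraries, so that the ATLD libraries of day 28 overlapped those of day 14. All ATLD libraries of day 0 lay above those of both later days for the end-joining genes too.

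**Figure D4:**
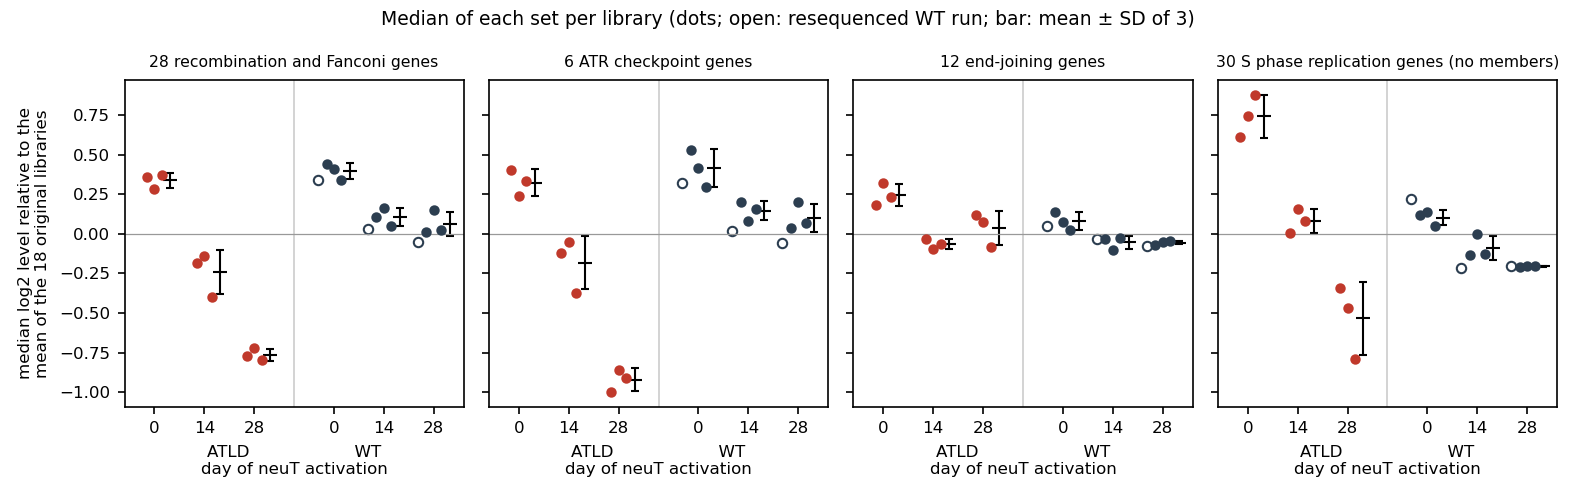
Median log2 level of a list in each library relative to the mean of the 18 original libraries (y axis), by genotype and day of neuT activation (x axis), for 4 lists, with the mean ± SD of 3 libraries beside the points and resequenced WT runs as open circles. The recombination and Fanconi genes, the ATR checkpoint genes and the S phase replication genes (the last are not members) are lower at each later day in ATLD libraries, whereas the end-joining genes lie at 0.18 to 0.32 at day 0 and at -0.09 to 0.12 at the later days.

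In the change with time, genes of DNA replication and the proliferation marker Mki67 moved with the recombination genes, and their part in the result was not tested. Of 30 S phase replication genes, none of them members, 29 had fallen in ATLD organoids by day 28, with a median log2 change of -1.33, and 10 in WT organoids, with a median of -0.34. Over all genes, 15.7% fell in ATLD and 12.4% in WT organoids. The change with time by day 28 was lower in ATLD than in WT organoids for 26 of the 30, beside 14% of all genes. The median difference of the 30 was -1.07. Rrm2, a ribonucleotide reductase subunit, differed most, at -1.58 ± 0.17 (SE, edgeR adjusted p = 1.79e-06). Between the genotypes within a day the lists had different medians. At day 0, 23 of the 30 S phase genes were higher in ATLD than in WT organoids, beside 26.1% of all genes. Their median was 0.58, against a median of 0.08 over the 28 recombination and Fanconi genes. At day 14, 12 S phase genes were higher and 2 lower, with a median of 0.29. Of the 28 recombination and Fanconi genes, 4 were higher and 9 lower at day 14, with a median of -0.20. Over all genes, 30.1% were higher and 35% lower at that day. The share of lower recombination and Fanconi genes was thus near that of all genes. At day 28 the medians were -0.36 for the S phase genes and -0.71 for the recombination and Fanconi genes. Mki67 held 449.7, 333 and 383 CPM at day 0, 230.3, 202 and 155 CPM at day 14 and 90.2, 102 and 94.8 CPM at day 28 in ATLD organoids. WT organoids held 414, 402 and 348 CPM at day 0, 381, 296 and 317 CPM at day 14 and 292, 399.9 and 253 CPM at day 28. Mki67 fell in ATLD organoids by day 28 at -2.02 ± 0.18 (SE, edgeR adjusted p = 2.49e-07), and changed by -0.30 ± 0.17 (SE, edgeR adjusted p = 0.251) in WT organoids. The 6 epithelial markers summed to 8300.0 to 8360 CPM at day 0, 6130 to 6720 CPM at day 14 and 5880 to 6590 CPM at day 28 in ATLD libraries, and to 4180 to 5090, 5390 to 11500 and 5960 to 10400 CPM in WT libraries. Single epithelial markers moved in opposite directions, and their part in the result was not tested. By day 28 the basal keratin gene Krt5 fell in ATLD organoids, at -1.04 ± 0.25 (SE, edgeR adjusted p = 0.00474), and rose in WT organoids, at 1.84 ± 0.26 (SE, edgeR adjusted p = 2.83e-05). Krt14, also basal, stood at -0.84 ± 0.34 in ATLD organoids without passing the test and rose in WT organoids, at 1.81 ± 0.34 (SE, edgeR adjusted p = 0.000634). The luminal keratin genes Krt8 and Krt18 stood at -0.41 ± 0.28 and 0.06 ± 0.16 in ATLD organoids without passing the test, and fell in WT organoids, at -1.03 ± 0.28 (SE, edgeR adjusted p = 0.0116) and -1.18 ± 0.17 (SE, edgeR adjusted p = 3.25e-05). The change by day 28 in ATLD minus that in WT was -2.87 ± 0.36 (SE, edgeR adjusted p = 8.4e-06) for Krt5, -2.65 ± 0.48 (SE, edgeR adjusted p = 0.000405) for Krt14, -0.69 ± 0.23 (SE, edgeR adjusted p = 0.0373) for Cdh1 and 1.24 ± 0.23 (SE, edgeR adjusted p = 0.000581) for Krt18. The 12 markers of other cell types summed to 10.7 to 16.4, 20.4 to 23.5 and 18.1 to 31.4 CPM in ATLD libraries, and to 51.3 to 64.4, 23.6 to 26.6 and 37.6 to 45.8 CPM in WT libraries. At day 0, 1 of the 7 that were tested was higher in ATLD organoids and 4 were lower, beside 26.1% and 29.5% of all genes. The median log2 difference of the 7 was -1.88. In the change by day 14, 3 of the 7 were higher in ATLD than in WT organoids, beside 10.8% of all genes, with a median of 1.95. Their part in the result was not tested.

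Other genes of the same pathways, not among the 49, were set beside them. Over all genes tested, 15.7% fell and 14.1% rose in ATLD organoids by day 28, and 12.4% fell and 12.3% rose in WT organoids. Of 37 other recombination and Fanconi genes, 17 had fallen and 2 had risen in ATLD organoids by day 28, and 7 had fallen and 1 had risen in WT organoids. The largest rise in ATLD organoids was that of Sfr1, a recombination accessory factor, at 0.50 ± 0.10 (SE, edgeR adjusted p = 0.00131). Rbbp8, which works with Mre11 in resection, rose most in WT organoids, at 0.76 ± 0.14 (SE, edgeR adjusted p = 0.000552), and fell in ATLD organoids at -0.68 ± 0.14 (SE, edgeR adjusted p = 0.00167). Of 21 other genes of end joining and break signalling that were tested, 4 had fallen and 2 had risen in ATLD organoids by day 28, not far from the shares over all genes. Atm, the kinase that Mre11 helps to activate, fell most, at -1.05 ± 0.20 (SE, edgeR adjusted p = 0.000812), and Parp3, a break-sensing relative of Parp1, rose most, at 0.70 ± 0.15 (SE, edgeR adjusted p = 0.00154). Of 12 other ATR checkpoint genes, 9 had fallen and none had risen in ATLD organoids, and in WT organoids none was called. Cdc25c, the phosphatase that opposes Wee1, fell most in ATLD organoids, at -1.47 ± 0.12 (SE, edgeR adjusted p = 1.05e-07).

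Of the 49 genes, 42 were called in at least 1 of the 11 comparisons, and 7 in none. The 7 were Xrcc2, Mus81, Fance, Fancf, Parp2, Dclre1c and Atrip. Mus81 held 25.4, 28.01 and 23.4 CPM at day 0, 25.97, 27.6 and 31.2 CPM at day 14 and 40.05, 34.4 and 31.99 CPM at day 28 in ATLD organoids. WT organoids held 12.6, 17.5 and 17.4 CPM at day 0, 10.1, 24.9 and 9.03 CPM at day 14 and 22.8, 11.9 and 23.96 CPM at day 28. Its lowest WT values were in 3 libraries low in GC-rich genes, day 14 replicates 1 and 3 and day 28 replicate 2, as were those of Fance, which held 26.5, 24.5 and 22.4 CPM at day 0, 18.2, 22.7 and 21.9 CPM at day 14 and 28.5, 22.7 and 23.2 CPM at day 28 in ATLD organoids. WT organoids held 14.2, 17.03 and 17.2 CPM at day 0, 8.38, 23.8 and 8.04 CPM at day 14 and 21.7, 10.2 and 22.02 CPM at day 28. Atrip held 20.03, 19.01 and 18.7 CPM at day 0, 17.6, 18.9 and 19.6 CPM at day 14 and 19.1, 18.4 and 17.6 CPM at day 28 in ATLD organoids. WT organoids held 19.1, 17.8 and 19.9 CPM at day 0, 15.5, 19.8 and 16.4 CPM at day 14 and 21.98, 15.9 and 20.1 CPM at day 28, with all groups overlapping. For 10 members, at least 10% of the exon bases also belong to exons of another gene, with the largest shares in Rad54b (35.8% with Fsbp, on the same strand) and Lig3 (25.1% with Rffl, on the opposite strand). The strand setting of the counting is not given in the sources used here, so that counts of Lig3, Fanci, Fancc, Rad54l, Fancf, Fancl and Fanca may hold reads of their opposite-strand neighbours. Those of Rad54b, Atrip and Rnf8 may be split with a neighbour on the same strand.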

How the data were processed

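RNA was polyA-selected and sequenced from stranded libraries, per the labels' protocols, and the submitters' processing notes name featureCounts, DESeq2 and the mm10 build. The deposited table held raw counts per gene for 21 libraries, with no normalization. Its IDs were matched to GENCODE vM21 with equal starts and ends for all 55536. CPM values are counts divided by library sizes scaled by TMM over the 21 libraries, and RPKM values divide them by the deposited gene length.

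Changes were tested with edgeR 4.0.16 (quasi-likelihood F test, R 4.3.3) over all genes with at least 10 counts in enough libraries and 15 in total. A gene was called at a Benjamini-Hochberg adjusted p under 0.05. Day comparisons and the genotype by time difference used the 18 original libraries in 1 fit (12 residual degrees of freedom). Genotype comparisons used 21 libraries with a batch term (14 residual degrees of freedom). An SE is the log2 change divided by the root of F. Alternatives were DESeq2 1.42.0, limma 3.58.1 (voom with the culture as a random block), another normalization, no filter, a GC offset, other sets of libraries and each library left out. Leaving out the 3 WT libraries low in GC-rich genes was added after seeing the data.

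In each role, up to 4 genes called in the most comparisons and the gene highest per length are named with levels in every library, and in each comparison the largest called rise and fall. Brca2, Mus81 and Atrip were given levels or singled out beyond that rule after their values were seen. The 49 genes and the other lists were chosen with earlier results of these data known.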

Additional observations from a re-analysis of the deposited data

Results flagged for a closer look

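The test of the difference between ATLD and WT organoids in their change with neuT activation singled out 8 of the 49 genes at day 14 and 26 at day 28 (edgeR, adjusted p under 0.05). The values below are the log2 change against day 0 in ATLD minus that in WT. At day 14 they were -2.042 for Rad51b, -0.902 for Rad51c, -0.631 for Brca1 and -0.618 for Blm among the recombination genes. They were -0.822 for Fancb of the Fanconi core complex, -0.78 for Xrcc5 of Ku and -0.859 for Topbp1 and -0.443 for Wee1 of the ATR checkpoint. Of these 8 calls 2, Rad51b and Topbp1, held in all alternative fits. The calls of Rad51c, Brca1, Blm, Xrcc5 and Wee1 were lost without the 3 WT libraries low in GC-rich genes. At day 28 the recombination genes were at -2.31 for Rad51b, -1.582 for Brca1, -1.311 for Dna2, -1.29 for Blm, -1.12 for Rad54l and -1.081 for Rad54b. The other recombination genes were at -1.006 for Bard1, -0.992 for Exo1, -0.957 for Brca2, -0.893 for Brip1, -0.756 for Rad51c and -0.648 for Palb2. The Fanconi genes were at -1.085 for Fanci, -1.051 for Fancm, -0.867 for Fancb and -0.774 for Fancd2. The ATR checkpoint genes were at -1.277 for Clspn, -1.171 for Topbp1, -1.161 for Chek1, -0.785 for Atr and -0.77 for Wee1, and Rif1, of break-site signalling, was at -0.753. The end-joining genes were at -1.47 for Polq, -0.873 for Prkdc and -0.722 for Xrcc5, and Lig4 was the 1 gene of the 26 with a positive difference, at 0.482. Of the 26 genes at day 28, 20 were not called between ATLD and WT organoids at day 0, beside 35 of all 49 genes. A gene that was not called at day 0 is not thereby shown to be equal in the genotypes. The day 28 calls of Palb2, Lig4, Brca2, Rad51c and Rif1 were lost in at least 1 alternative fit.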

How the results depend on the processing

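Over the 11 comparisons the 49 genes gave 214 calls, of which 147 held in every alternative fit. Of 3186 alternative values, 2870 kept direction and call, 316 kept direction alone, and 0 reversed. The 1 call between WT day 28 and day 14 became 0 with no filter, with the replicate block, with the compared groups alone, with the resequenced run in place of the original, and without the 3 WT libraries low in GC-rich genes. For WT day 14 against day 0, 15 calls became 9 with the replicate block and 26 with all 21 libraries and a batch term. For genotype by time at day 14, 8 became 5 with the replicate block and 4 with the resequenced runs. For ATLD against WT, 22 calls at day 14 became 36 with no batch term, and 14 at day 0 became 8 in the second batch alone. The causes were not tested. Leaving out 1 library at a time gave 8 to 24 calls for WT day 14, 10 to 20 for WT day 28 and 0 to 7 for WT day 28 against day 14. It gave 5 to 14 for genotype by time at day 14, and 7 to 14 for ATLD against WT at day 0. Whether the replicate numbers pair the samples is not given in the labels. For each gene, the mean of the group was subtracted from the log2 level of each library. What remained correlated at -0.71 to 0.33 across genes between same-numbered libraries of 1 genotype. Libraries with different numbers were not set beside them, so that these values cannot decide it. The replicate block gave 27 calls against 31 for ATLD day 28 and 22 against 26 for genotype by time at day 28. Counting error weighs most on the members with the fewest counts.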
